A study of Mus musculus with 60 samples.

Results

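The potassium channel genes of mouse striatum were taken as all genes whose symbol in the array platform's probe table starts with Kcn, and each gene was read on its brightest probe by mean signal over 60 arrays. There were 88 such genes among 19057 genes with a named probe, carried by 173 probes, and all 88 brightest probes entered the tests. By function, as read from the symbols, the set held 35 voltage-gated subunits, 16 accessory subunits and regulators, 13 inward rectifiers and 14 two-pore domain channels. It also held 8 genes grouped as calcium- or sodium-activated channels and 2 long noncoding RNAs. The 8 include Kcnu1 (Slo3), which neither ion opens.

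The study profiled mRNA abundance in the striatum of adult male C57BL/6J mice (8 to 10 weeks old) after a single intraperitoneal injection of an antagonist of the NMDA glutamate receptor. The doses were 20 mg/kg for ketamine, 15 mg/kg for memantine and 5 mg/kg for PCP (phencyclidine). The controls were saline, the vehicle, and naive mice without an injection, and all 5 treatments were sampled at 1, 2, 4 and 8 h. Each of the 20 groups had 3 arrays, and each array carried RNA of 2 mice pooled, so a value is the mean of 2 animals and the spread between single mice cannot be seen. Whole striatal tissue was used, in which fewer cells of a type and less RNA per cell cannot be told apart.

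Potassium channels let potassium leave the neuron and so hold its resting potential, end its action potentials and set the pace of firing. In the projection neurons that make up most of the striatum, the Kir2 inward rectifiers keep the membrane near the potassium equilibrium between bursts of cortical input, and the Kv1 and Kv4 channels carry the A-type currents that delay firing once the cell is depolarized. GIRK channels open when a receptor coupled to Gi proteins releases its beta-gamma subunits, KCNQ channels carry the M-current that muscarinic receptors close, and BK and SK channels are opened by calcium. Glial and vascular cells use others, such as the Kir4.1 and Kir5.1 pair of astrocytes and the Kir6.1 channel of pericytes, and KCNE2 is a subunit abundant in the epithelium of the choroid plexus.

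No Kcn gene passed an adjusted p of 0.05 (limma moderated tests, Benjamini-Hochberg over 44236 probes) in any of 29 comparisons. Averaged over the 4 times as drug minus time-matched saline (the drug factor), 0 of 88 Kcn genes were called for ketamine, where 0.0181% of all probes were called. The same count was 0 of 88 for memantine (0.0543% of all probes) and 0 of 88 for PCP (0% of all probes). At an unadjusted p under 0.05 the ketamine drug factor held 6 of the 88 genes, or 6.82%, beside 9.2% of all tested genes. For memantine it held 4 genes (4.55% beside 8.88%), and for PCP 5 genes (5.68% beside 7.08%). These Kcn shares were below those of all genes, but rest on 4 to 6 genes and on the same saline arrays. They are not read as a result about the Kcn genes.

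Of the 88 genes about as many were higher as lower with ketamine and memantine, and more were lower with PCP. Under ketamine 44 were higher and 44 lower than in saline, with a median log2 change of -0.0025, against 0.0050 over the 18935 tested genes. Under memantine 45 were higher and 43 lower (median 0.0047, all genes 0.0034), and under PCP 40 were higher and 48 lower (median -0.0085, all genes 0.0076), so 45.5% were higher beside 52.3% of all genes. The most uneven splits among the 23 comparisons of 2 groups were those of PCP at 8 h and of ketamine against PCP. With PCP at 8 h 33 were higher and 55 lower, so 37.5% were higher beside 51.3% of all genes. For ketamine against PCP 58 were higher and 30 lower, beside 49% of all genes higher in that comparison. They were picked for their size from all these comparisons. The changes ran between -0.36 and 0.67 on the log2 scale for ketamine, -0.36 and 0.37 for memantine, and -0.39 and 0.55 for PCP.

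**Figure D1:**
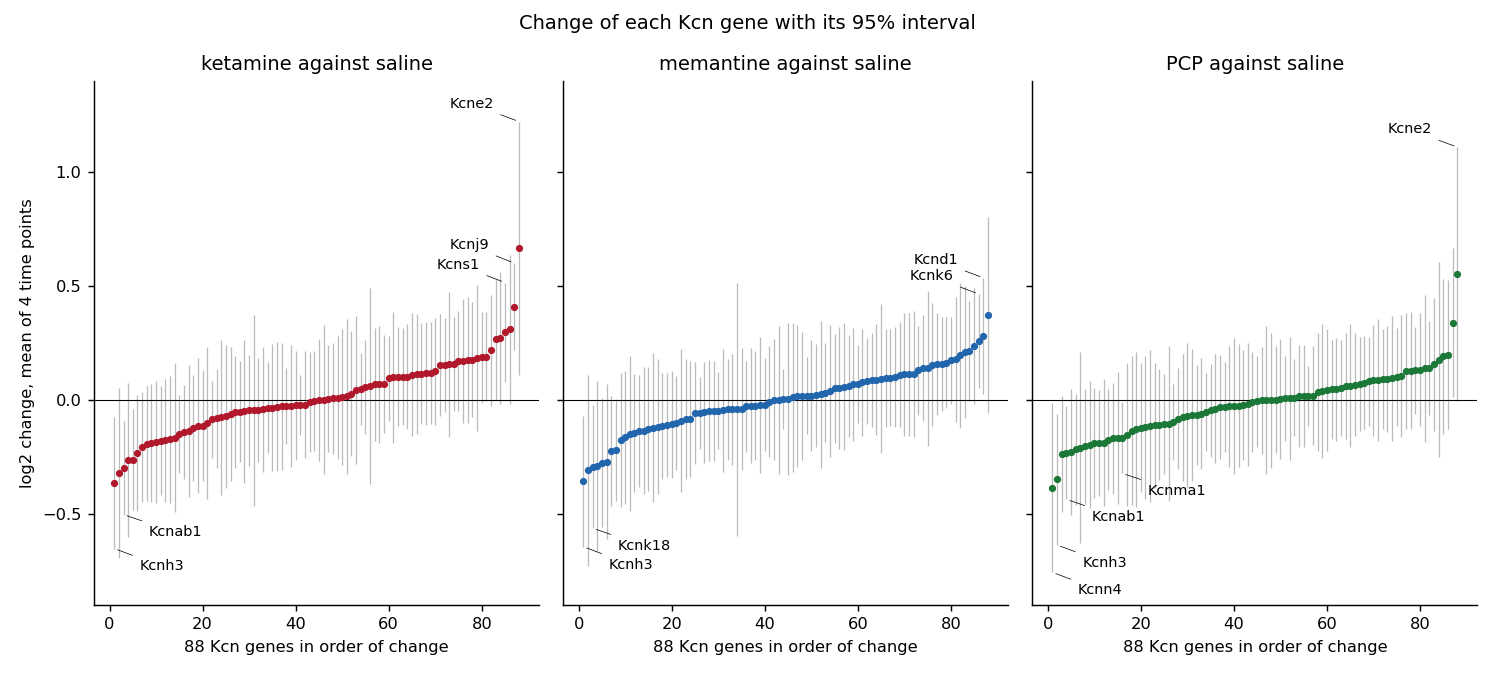
Change of each of the 88 Kcn genes in the 3 drug factors (y axis, log2 of drug over time-matched saline; points with 95% intervals), with genes ranked by their change within each panel (x axis) and a few genes described in the text named. Most intervals cross 0, and the points run from -0.39 for Kcnn4 under PCP to 0.67 for Kcne2 under ketamine.

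These arrays bounded most of the changes in normalized signal. The standard error of a drug factor had a median of 0.125 log2 units over the 88 genes (range 0.0653 to 0.277), and the 95% interval lay within a 1.5-fold change in either direction for 82 of 88 genes with each drug. It lay within a 2-fold change for 87 genes with ketamine, 88 with memantine and 87 with PCP. These are bounds on signal, and only 33 of the 88 genes lay above the array median on all arrays. For the dimmer genes a narrow interval does not bound the change in mRNA, since no control probe sets a floor. At a single time the standard error was larger (median 0.249), and between 16 genes (ketamine at 4 h) and 36 genes (ketamine at 8 h) were held within 1.5-fold, so smaller changes at 1 time were not detectable with 3 arrays a group.

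Across the 60 arrays the array median signal ran from 166.9 to 646.1 intensity units before normalization, and the mean correlation of an array with the others from 0.9336 to 0.9699. The 3 saline arrays of lowest correlation were 4 h replicates 1 and 3 and 1 h replicate 3, and the values of the main genes that rest on them are also given without them. Only 1 saline array of 4 h, replicate 2, is then left. Values at 4 h without them rest on that array, and averages over the 4 times take it for 4 h. The place of an array on its BeadChip followed the treatment (for ketamine 10 arrays at place A and 2 at place B, for saline 2 at E and 10 at F), so place and treatment cannot be told apart. The tissue carried its defining markers. Of 14 measured genes of striatal projection neurons, 13 lay above the array median on all 60 arrays, including the dopamine receptors Drd1 and Drd2 and Ppp1r1b (DARPP-32), while Adcy5 did so on 3 arrays.

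Of the 88 Kcn genes, 33 gave a signal above the array median on all 60 arrays, and 1 (Kcnk16) on none. Those above it on every array included 13 of 35 voltage-gated subunits, 8 of 16 accessory subunits, 3 of 13 inward rectifiers, 4 of 14 two-pore channels and 4 of 8 calcium- or sodium-activated channels. The signals of the dimmer genes lie near the bulk of probes with no control probe to set a floor, so a low value there is not evidence of absence. The SD of a gene over all 60 arrays ran from 0.119 (Kcnk1) to 0.861 (Kcne2) log2 units, with a median of 0.311, and the SD within groups had a median of 0.309. Most of the spread thus lay between arrays of 1 group. Of 1760 group means, each taken against the gene's mean over the 60 arrays, 1731 lay within 0.5 and 2 beyond 1, both of them Kcne2.

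**Figure D2:**
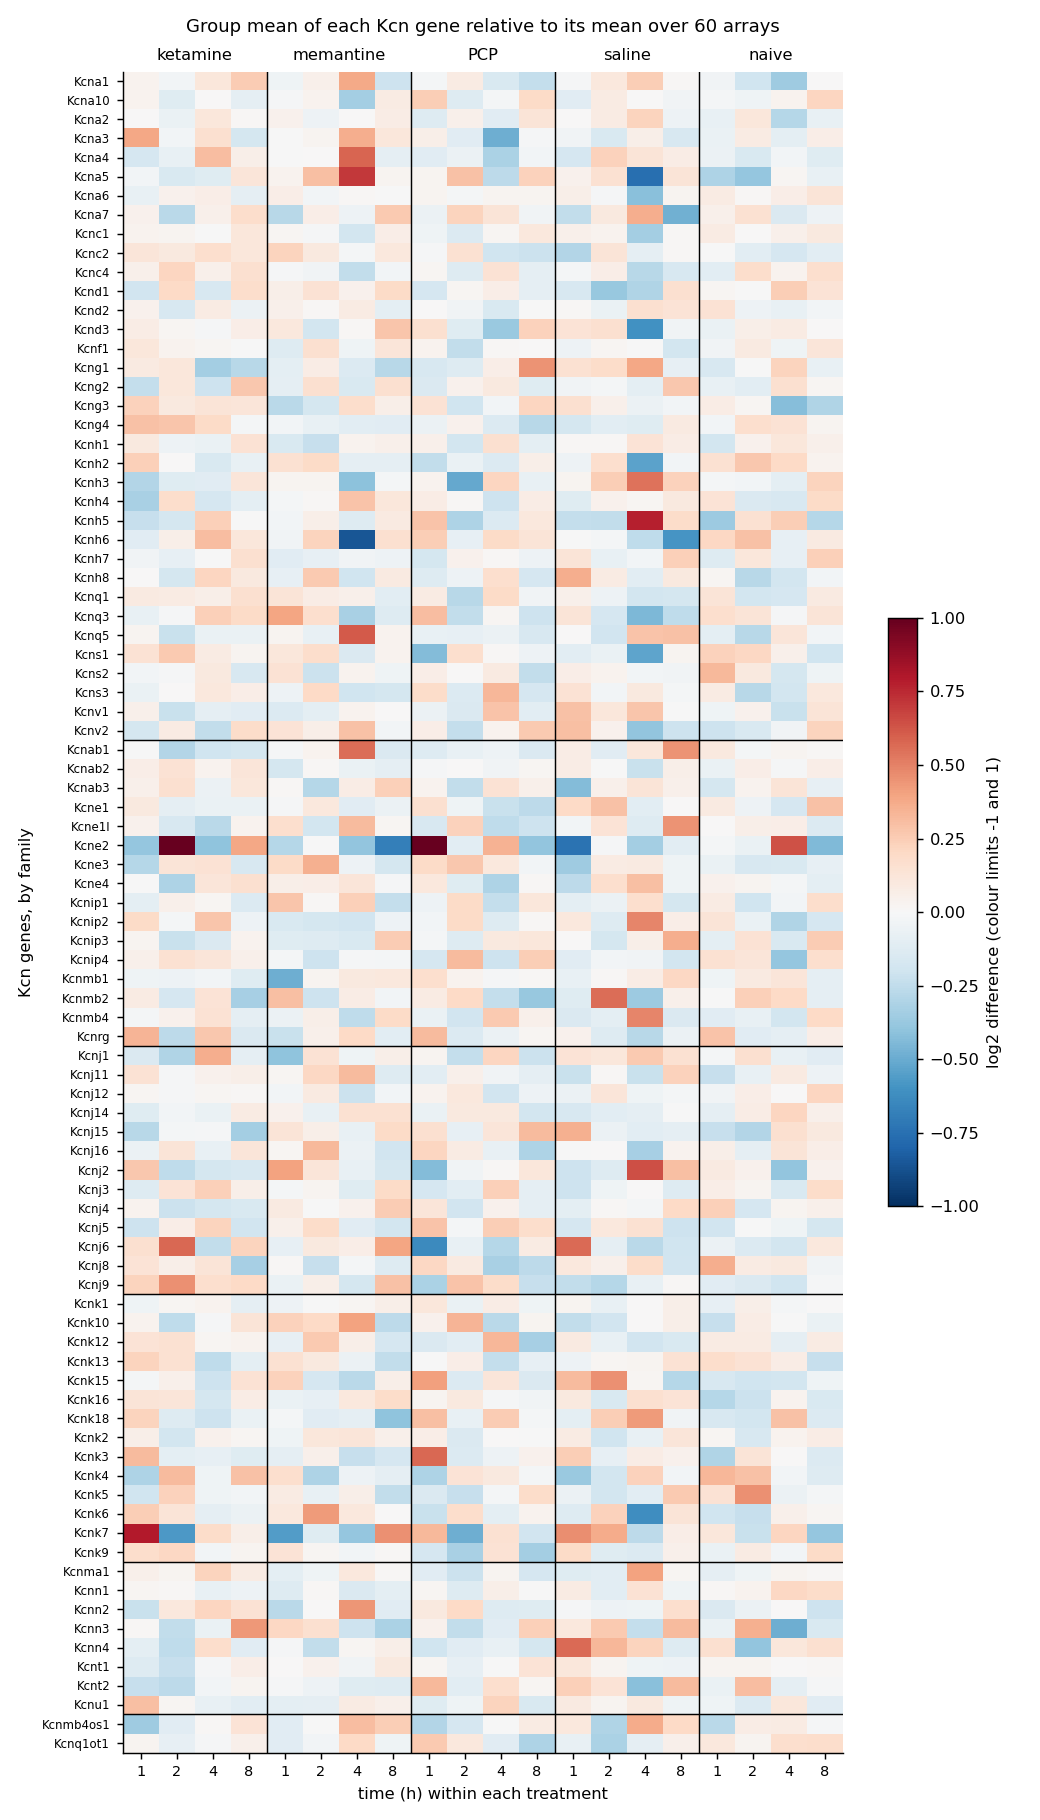
Heat map of the 88 Kcn genes (rows, by functional family) over the 20 groups of 3 arrays (columns, drugs before saline and naive, 1 to 8 h within each), coloured by the group mean minus the gene's mean over the 60 arrays on the log2 scale. Kcne2 stands out under ketamine at 2 h and PCP at 1 h, and 1731 of the 1760 cells lie within 0.5 of 0.

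The G protein-gated inward rectifier subunit GIRK3, encoded by Kcnj9, had the smallest p of any Kcn gene in the ketamine drug factor. Its probe was dim, above the array median on only 28 of 60 arrays, so its values lie among dim signals. GIRK3 joins GIRK1 or GIRK2 in channels that slow neurons when opioid, GABA-B or D2-like receptors are active. At 1 h the ketamine arrays read 7.50, 7.29 and 7.32 log2 units, against 7.09, 6.91 and 6.72 in the saline arrays. At 2 h they read 7.81, 7.32 and 7.68 with ketamine, against 6.57, 7.15 and 6.89 with saline. The groups did not overlap at either of these times. At 4 h the values were 7.21, 7.34 and 7.41 with ketamine, against 6.87, 7.26 and 7.09 with saline. At 8 h they were 7.49, 7.42 and 7.15 with ketamine, against 7.07, 7.20 and 7.21 with saline. At these later times the groups overlapped. The drug factor was 0.41 ± 0.095 (SE; 95% interval 0.22 to 0.60), a 1.33-fold change, with 11 of 12 ketamine arrays above the saline mean of their time. Its unadjusted p was 8.12e-05 and its adjusted p 0.129, so Kcnj9 was not called.

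Over the 4 times the lowest, median and highest of 12 arrays of Kcnj9 were 7.15, 7.38 and 7.81 with ketamine, 6.83, 7.14 and 7.95 with memantine, 6.75, 7.06 and 7.74 with PCP, 6.57, 7.08 and 7.26 with saline and 6.71, 7.03 and 7.28 in naive mice. Saline and naive arrays thus stood close, and ketamine minus naive was 0.38 with an adjusted p of 0.889. The memantine and PCP drug factors were 0.17 and 0.13. A second Kcnj9 probe gave 0.14 for ketamine. Where 1 BeadChip held both a ketamine and a saline array of a given time, ketamine minus saline was 0.775 at 1 h, 0.921 at 2 h, 0.126 at 4 h and 0.277 at 8 h. With BeadChip as a block the drug factor was 0.44 (adjusted p = 0.0544), and without the 3 saline arrays of lowest correlation 0.34 (adjusted p = 0.428). Over the alternatives of processing the adjusted p of Kcnj9 ran from 0.0544 to 0.889. Kcnj9 also stands in a gene list that the study drew from its own arrays, so its place here is not independent of that choice.

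**Figure D3:**
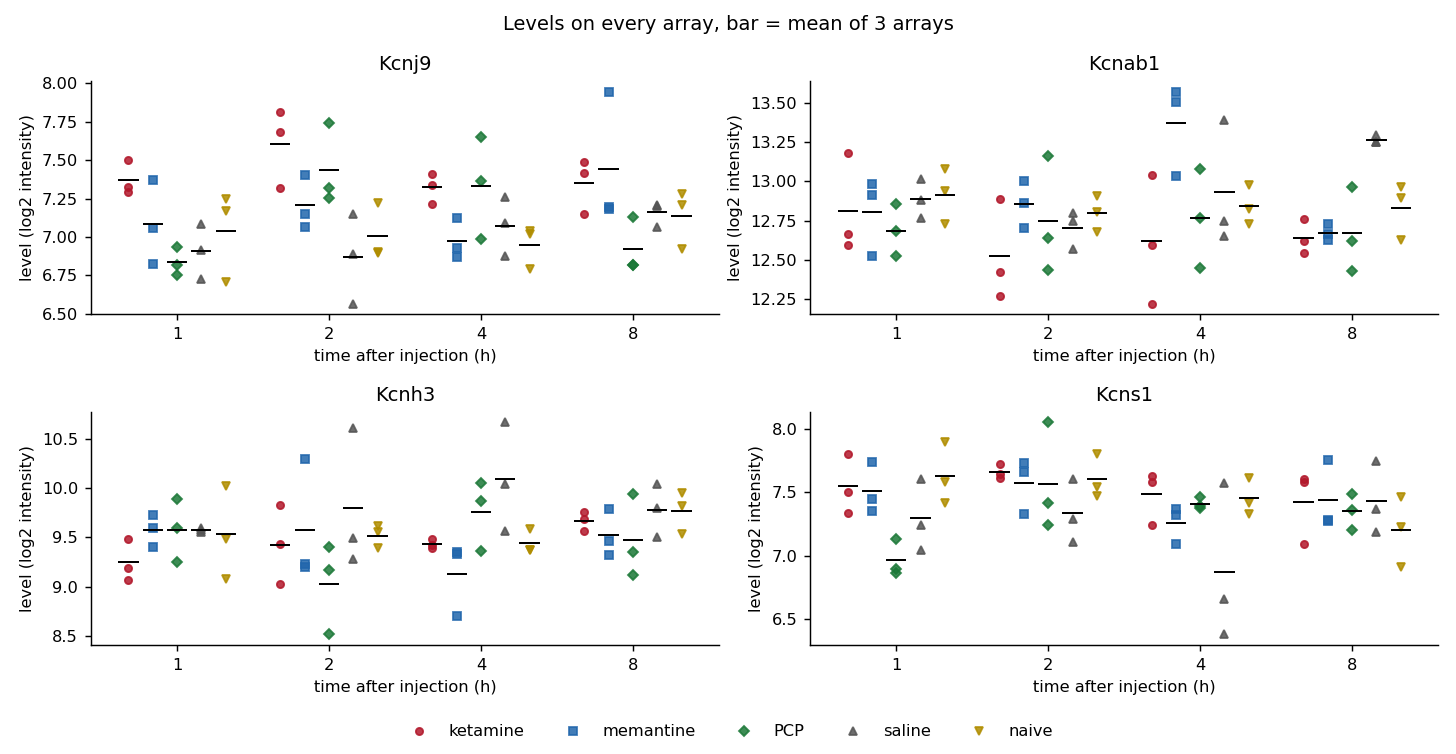
Array levels (y axis, log2 signal; points are arrays of 2 pooled mice, bars the mean of 3 arrays) of Kcnj9, Kcnab1, Kcnh3 and Kcns1 by time after injection (x axis) and treatment. Kcnj9 under ketamine sits above saline at 1 and 2 h with no overlap, and the 3 saline arrays of Kcnab1 at 8 h, all at 13.25 or above, sit over every other group of that time.

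Kcnj6, which encodes GIRK2, changed by 0.17, 0.11 and -0.23 in the ketamine, memantine and PCP drug factors (SE 0.14), and its smallest p at a single time was with PCP at 1 h. It read 6.53, 7.30 and 6.77 with PCP at 1 h, against 7.62, 7.74 and 8.84 with saline, with no overlap. The log2 change was -1.20 (SE 0.275, adjusted p = 0.508). The naive arrays of that time read 7.55, 7.20 and 7.57 and overlapped those of PCP, the change against them was -0.58, and without the 3 saline arrays of lowest correlation it was -0.82. Against saline a dimmer probe of Kcnj6 had the opposite sign with PCP at 1 h. Ketamine at 2 h gave 0.66 for Kcnj6 and memantine at 1 h -0.65. Kcnj3 (GIRK1), the subunit most neuronal GIRK channels share, changed by 0.17, 0.11 and 0.06 with ketamine, memantine and PCP (SE 0.13). Kcnj5 (GIRK4), chiefly a cardiac subunit, changed by 0.00, 0.01 and 0.20 (SE 0.16).

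None of the strong inward rectifiers of the Kir2 family had an unadjusted p under 0.05 in a drug factor. Kcnj4 (Kir2.3), which striatal projection neurons express, lay between 10.82 and 11.90 log2 units on every array and changed by -0.15, 0.07 and -0.05 with ketamine, memantine and PCP (SE 0.08). Kcnj12 (Kir2.2) changed by 0.01, -0.05 and -0.03 (SE 0.13). Kcnj2 (Kir2.1) changed by -0.23, -0.08 and -0.24 (SE 0.13), the lowest of the 13 inward rectifiers with ketamine and PCP, and its values at 4 h are given with the saline arrays of that time below. Kcnj16 (Kir5.1), the astrocyte subunit, changed by 0.10, 0.10 and 0.05 (SE 0.11). Of the subunits of channels closed by ATP, Kcnj8 (Kir6.1, of pericytes and vascular muscle) changed by -0.04, -0.13 and -0.11 (SE 0.14), and Kcnj11 (Kir6.2) by 0.11, 0.15 and 0.01 (SE 0.13). Kcnj1, the renal ROMK channel, was lower than saline by about the same size with every drug (-0.21, -0.22 and -0.22, SE 0.12), none with an unadjusted p under 0.05. Against naive arrays the Kcnj1 differences were -0.03, -0.05 and -0.04. Its probe was dim, above the array median on only 14 of 60 arrays. Over the 13 inward rectifiers 8 were higher and 5 lower with ketamine, 9 and 4 with memantine, and 7 and 6 with PCP, with medians of 0.010, 0.070 and 0.007.

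The bases ahead of 3 genes whose values are followed here are shown to tell which of the letters searched for they hold. The sequences are the 250 bases before the annotated transcription start, 5′ to 3′ on the gene's strand, from RefSeq on GRCm38.p6. Capitals mark matches to TGACG (the core of a CREB site), TGACGTCA (the full site), CACGTG (an E-box, the letters bound by CLOCK and MYC proteins), AGAACA (one arm of a glucocorticoid receptor site) or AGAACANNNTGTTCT (both arms), searched on both strands, and a full site also counts as its core. Kcnj9, at chr1:172329323-172329572 on the minus strand, held no match. Kcnj2, at chr11:111065914-111066163 on the plus strand, held 1 E-box. Kcne2, at chr16:92292139-92292388 on the plus strand and the first of 2 annotated starts, held 2 CREB cores, in opposite directions.
Kcnj9: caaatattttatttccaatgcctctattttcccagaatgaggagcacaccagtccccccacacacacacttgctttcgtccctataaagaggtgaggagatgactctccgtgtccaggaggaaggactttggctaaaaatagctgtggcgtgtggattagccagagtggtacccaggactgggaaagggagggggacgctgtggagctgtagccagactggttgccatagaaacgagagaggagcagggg
Kcnj2: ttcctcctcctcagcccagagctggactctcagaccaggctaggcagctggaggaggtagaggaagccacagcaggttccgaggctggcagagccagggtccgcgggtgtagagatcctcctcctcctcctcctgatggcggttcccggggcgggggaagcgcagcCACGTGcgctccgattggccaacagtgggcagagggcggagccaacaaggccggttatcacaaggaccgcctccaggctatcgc
Kcne2: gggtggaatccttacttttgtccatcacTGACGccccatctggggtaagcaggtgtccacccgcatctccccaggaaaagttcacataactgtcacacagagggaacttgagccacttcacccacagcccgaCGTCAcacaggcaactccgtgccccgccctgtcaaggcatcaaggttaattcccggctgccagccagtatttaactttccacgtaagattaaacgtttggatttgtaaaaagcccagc
Windows of 300 bases (250 before and 50 after the start) were found for 67 of the 88 genes, 92 windows in all. TGACG stood in 18 of 92 (19.565%), against 20.812% of 32851 windows of all genes, and TGACGTCA in 0 of 92, against 1.79%. CACGTG stood in 7 of 92 (7.609%, all genes 7.15%), AGAACA in 15 (16.304%, all genes 18.974%) and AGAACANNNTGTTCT in 0 (all genes 0.009%). The Kcn windows were richer in G and C, with a median of 58.0% against 52.7% over all windows. A match is a run of letters and says nothing of a factor's presence.

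Among voltage-gated subunits and their partners, Kcnab1 and Kcnh3 were lower and Kcns1 higher under ketamine at an unadjusted p, none of them called. Adjusted p here are from limma. Kcnab1 encodes Kvβ1, a cytoplasmic subunit that gives Kv1 channels fast inactivation. Its ketamine drug factor was -0.30 ± 0.102 (SE; 95% interval -0.50 to -0.09, adjusted p = 0.332), with 9 of 12 arrays below the saline mean of their time. PCP gave -0.23 (adjusted p = 0.677, 10 of 12 arrays below) and memantine -0.02. At 8 h Kcnab1 read 12.62, 12.54 and 12.76 with ketamine, 12.73, 12.67 and 12.62 with memantine and 12.62, 12.42 and 12.96 with PCP, against 13.25, 13.25 and 13.30 with saline. No drug array overlapped the saline arrays. The naive arrays of 8 h read 12.62, 12.97 and 12.90, so they too lay below saline, and ketamine minus naive over the 4 times was -0.20. The 3 drugs share these saline arrays, and the changes at 8 h were -0.63, -0.59 and -0.60 with adjusted p of 0.995, 0.99 and 0.977. At 4 h memantine went the other way, with 13.03, 13.57 and 13.51, against 13.39, 12.75 and 12.65 with saline (0.44). Kcnab1 has 5 probes. At 8 h 3 of the dimmer ones had the opposite sign with ketamine and with PCP, the largest exceeding the size given above. Fewer had the opposite sign in the drug factors. The values above thus hold for the brightest probe only.

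Kcnh3 encodes Kv12.2, a forebrain channel open near rest that limits excitability in mouse hippocampus. It was lower than saline by almost the same size with ketamine (-0.36, SE 0.14, adjusted p = 0.406), memantine (-0.36, adjusted p = 0.43) and PCP (-0.35, adjusted p = 0.653). Kcnh3 lay below the saline mean of its time on 11, 8 and 9 of 12 arrays with these drugs. With ketamine Kcnh3 read 9.19, 9.07 and 9.49 at 1 h, against 9.58, 9.60 and 9.55 with saline, with no overlap. At 4 h it read 9.39, 9.43 and 9.49 with ketamine, 9.34, 9.35 and 8.71 with memantine and 10.05, 9.87 and 9.36 with PCP, against 9.56, 10.66 and 10.05 with saline. The memantine and ketamine arrays of 4 h lay below all saline arrays, and those of PCP overlapped them. Against the naive arrays the differences were smaller, at -0.12, -0.11 and -0.11, and saline minus naive was 0.24. Without the 3 saline arrays of lowest correlation the ketamine drug factor of Kcnh3 was -0.51. At 4 h that value rests on the saline array at 10.66, the highest of its group.

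Kcns1 encodes Kv9.1, which is silent alone and alters Kv2 channels when it joins them. Its ketamine drug factor was 0.30 ± 0.109 (SE; 95% interval 0.08 to 0.52, adjusted p = 0.376), with 11 of 12 arrays above the saline mean. Here too the saline arrays stood apart from the naive ones. Kcns1 read 6.66, 7.57 and 6.38 with saline at 4 h, against 7.62, 7.33 and 7.42 in naive mice. Saline minus naive over the 4 times was -0.24 (adjusted p = 0.52), and ketamine minus naive 0.06. Without the 3 saline arrays of lowest correlation the ketamine drug factor of Kcns1 was 0.16. Kcnv1 (Kv8.1), another silent subunit, was lower than saline on 11 of 12 ketamine arrays (-0.26, adjusted p = 0.448), with -0.22 for memantine and -0.18 for PCP. Against naive arrays the Kcnv1 differences were smaller, at -0.07, -0.03 and 0.02 with ketamine, memantine and PCP. Its saline arrays averaged 9.21 and its naive arrays 9.02.

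None of the following channels known from the firing of striatal neurons had an unadjusted p under 0.05 in a drug factor. Kcnd2 (Kv4.2), the A-type channel of projection neuron dendrites, lay above the array median on every array, and changed by -0.08, -0.05 and -0.11 with ketamine, memantine and PCP (SE 0.11). Kcna2 (Kv1.2) changed by -0.05, -0.05 and -0.08 (SE 0.11), Kcna1 (Kv1.1) by 0.01, -0.04 and -0.17 (SE 0.12) and Kcna4 (Kv1.4) by -0.03, 0.06 and -0.20 (SE 0.14). All 3 are Kv1 subunits of axons and dendrites. Kcnc1 (Kv3.1), which lets parvalbumin interneurons fire fast, changed by 0.10, 0.03 and 0.05 (SE 0.11), and Kcnc2 (Kv3.2) by 0.19, 0.16 and -0.01 (SE 0.10). Kcnf1 (Kv5.1), a silent partner of Kv2, changed by 0.09, 0.08 and 0.01 (SE 0.09). Of the subunits of the M-current, Kcnq3 changed by 0.27, 0.21 and 0.16 (SE 0.14) and Kcnq5 by -0.18, 0.05 and -0.19 (SE 0.12). Over all 35 voltage-gated subunits 19 were higher and 16 lower with ketamine, 19 and 16 with memantine, and 17 and 18 with PCP.

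Of the ERG and EAG subunits and their Elk relatives, Kcnh7 (ERG3) changed by -0.05, -0.14 and -0.11 with ketamine, memantine and PCP (SE 0.12), and Kcnh4 (Elk1), a brain channel, by -0.11, 0.09 and -0.02 (SE 0.12). Kcnh6 (ERG2) was above saline by 0.31, 0.09 and 0.34, with an adjusted p of 0.695 for PCP, and its saline arrays were below naive ones by 0.35 on the log2 scale. Kcnh5 (Eag2) at 4 h read 7.20, 6.92 and 7.78 with PCP, against 8.34, 8.02 and 8.30 with saline and 7.67, 7.60 and 7.79 in naive mice. PCP minus saline was -0.92 for Kcnh5 (adjusted p = 0.254), and all 3 PCP arrays lay below all saline arrays. The change was -0.72 without the 3 saline arrays of lowest correlation, where only the saline array at 8.02 was left. Kcnd1 (Kv4.1) had a memantine drug factor of 0.28 (adjusted p = 0.475), and 0.05 without the 3 saline arrays of lowest correlation. The dimmer probe of Kcnd1 had the opposite sign.

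The subunits that tune A-type channels showed no common shift. KChIP proteins bind Kv4 channels and sense calcium, and KChIP3, encoded by Kcnip3, is also DREAM, a repressor of the dynorphin gene. Kcnip3 changed by -0.14, -0.10 and -0.05 with ketamine, memantine and PCP (SE 0.10), Kcnip1 by 0.00, 0.11 and 0.04 (SE 0.13) and Kcnip4 by 0.18, 0.02 and 0.14 (SE 0.16). Kcnip2 changed by -0.03, -0.28 and -0.12 (SE 0.14). Kcnip2 at 4 h read 9.14, 9.51 and 9.15 with saline, against 8.53, 8.43 and 8.47 in naive mice, again without overlap (0.79, adjusted p = 0.218). Without the 3 saline arrays of lowest correlation it was 1.04, where only the saline array at 9.51, the highest, was left. Kcnab2 (Kvβ2), which helps carry Kv1 channels to axons, changed by 0.12, -0.06 and 0.02 (SE 0.11). Over the 16 accessory genes 7 were higher and 9 lower with each drug.

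Kcne2 was the most variable gene of the set. Its levels ranged between 5.84 and 9.42 log2 units, and its values followed the choroid plexus markers on the same arrays. At 2 h Kcne2 read 9.04, 8.68 and 8.59 with ketamine, against 5.84, 6.71 and 8.14 with saline, with no overlap (1.87, SE 0.553, adjusted p = 0.66). At 1 h it read 8.61, 6.18 and 9.42 with PCP, against 6.57, 5.89 and 6.04 with saline (1.90, SE 0.553, adjusted p = 0.93), and the PCP array at 6.18 lay within the saline range. The fit without that array, PCP 1 h replicate 2, called Kcne2 at 1 h (limma, adjusted p = 0.0233). That fit was 1 of 60 that each left out 1 array. It removed the PCP array within the saline range, and the share of all probes called there is not given. The call is thus not read as a result about Kcne2. Over the 4 times the drug factors were 0.67 with ketamine (adjusted p = 0.441), -0.04 with memantine and 0.55 with PCP. High values were not limited to drug arrays, since naive arrays at 4 h read 8.08, 8.44 and 6.13.

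Kcne2 sits in the apical membrane of choroid plexus epithelium, so 16 markers of choroid plexus and ependyma were followed beside it, of which 13 were measured and Ttr (transthyretin), Clic6 and Rarres2 lay above the array median on all 60 arrays. Of these markers 12 of 13 were higher with ketamine than with saline (median 0.409), 10 of 13 with PCP (median 0.304) and 7 of 13 with memantine (median 0.067), while saline arrays were below naive arrays for 10 of 13 (median -0.205). The mean of the list, as log2 difference from naive arrays, was 1.03 with ketamine at 2 h (arrays 0.907 to 1.26), against 0.124 with saline (-0.251 to 0.860). It was 0.621 with PCP at 1 h (-0.305 to 1.22), against -0.304 with saline. The 10 arrays with the highest Kcne2 were the 10 arrays with the highest list mean. Ttr alone was higher by 3.54 with PCP at 1 h. The part of choroid plexus tissue in the Kcne2 values was not tested.

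**Figure D4:**
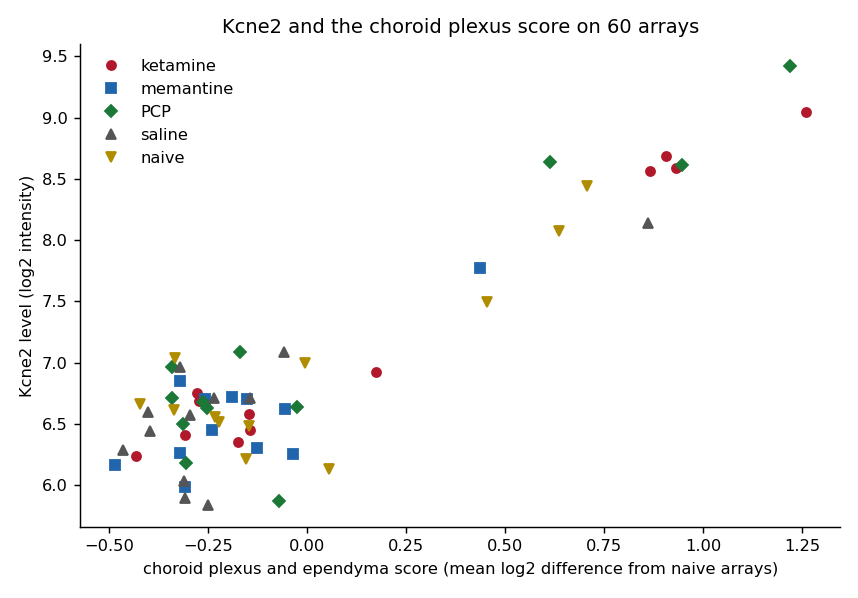
Kcne2 level (y axis, log2 signal) against the mean of 13 choroid plexus and ependyma markers (x axis, log2 difference from the naive arrays) on each of the 60 arrays, coloured by treatment. The 10 arrays highest for Kcne2 are also the 10 highest for the markers, and they come from ketamine, PCP and naive groups as well as 1 saline array.

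Markers of other cell types and regions were followed in the same way. Of 14 striatal projection neuron genes 13 were lower with ketamine than with saline (median -0.208), 8 with memantine (median -0.040) and 10 with PCP (median -0.097). The list mean averaged -0.116 over ketamine arrays (-0.777 to 0.104), against 0.060 over saline arrays (-0.133 to 0.243). Of 15 thalamus and hypothalamus genes 12 were higher with ketamine than with saline (median 0.291), 12 with memantine (median 0.238) and 10 with PCP (median 0.121), and saline arrays were below naive arrays for 11 (median -0.271). For ketamine the medians were 0.008 for cortical excitatory neurons, 0.050 for inhibitory interneurons, -0.011 for astrocytes, -0.019 for oligodendrocytes and -0.041 for endothelial and mural cells. The part of these shifts in the Kcn values was not tested.

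The calls of any gene were most frequent at 4 h. At that time memantine held 316 called probes of any gene (0.714%), ketamine 30 (0.0678%), PCP 10 (0.0226%) and saline against naive 108 (0.244%), and none of these was a Kcn probe. At an unadjusted p the Kcn counts were 13 with memantine (14.8%, all genes 17.4%), 10 with ketamine (11.4%, all genes 11.4%), 9 with PCP (10.2%, all genes 12.3%) and 16 for saline against naive (18.2%, all genes 13.6%). Saline arrays did not overlap naive arrays for 15 Kcn genes at 4 h, or 17%, against 12.3% of all tested genes.

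Kcnj2, the Kir2.1 channel that holds projection neurons at rest, came nearest to the threshold of all Kcn genes in all comparisons of 2 groups. It read 7.41, 8.34 and 8.25 with saline at 4 h, against 7.35, 6.57 and 6.99 in naive mice, with no overlap. The change was 1.03 (SE 0.254, 95% interval 0.52 to 1.54, 2.05-fold), with an adjusted p of 0.0572. With ketamine at 4 h Kcnj2 read 7.49, 6.94 and 7.12 (-0.82 against saline, adjusted p = 0.206), with memantine 7.33, 7.11 and 7.41 (-0.72, adjusted p = 0.15) and with PCP 7.59, 6.78 and 7.74 (-0.63, adjusted p = 0.33). Ketamine minus naive at 4 h was 0.21, memantine minus naive 0.31 and PCP minus naive 0.40. Without the 3 saline arrays of lowest correlation the changes of Kcnj2 were 1.38 for saline against naive, -1.16 with ketamine, -1.06 with memantine and -0.98 with PCP. These values rest on 1 saline array of 4 h, the one at 8.34, which was the highest of its group. On the authors' own values Kcnj2 passed for saline against naive (0.71, adjusted p = 0.0331), as it did with no background correction (0.62, adjusted p = 0.0389).

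**Figure D5:**
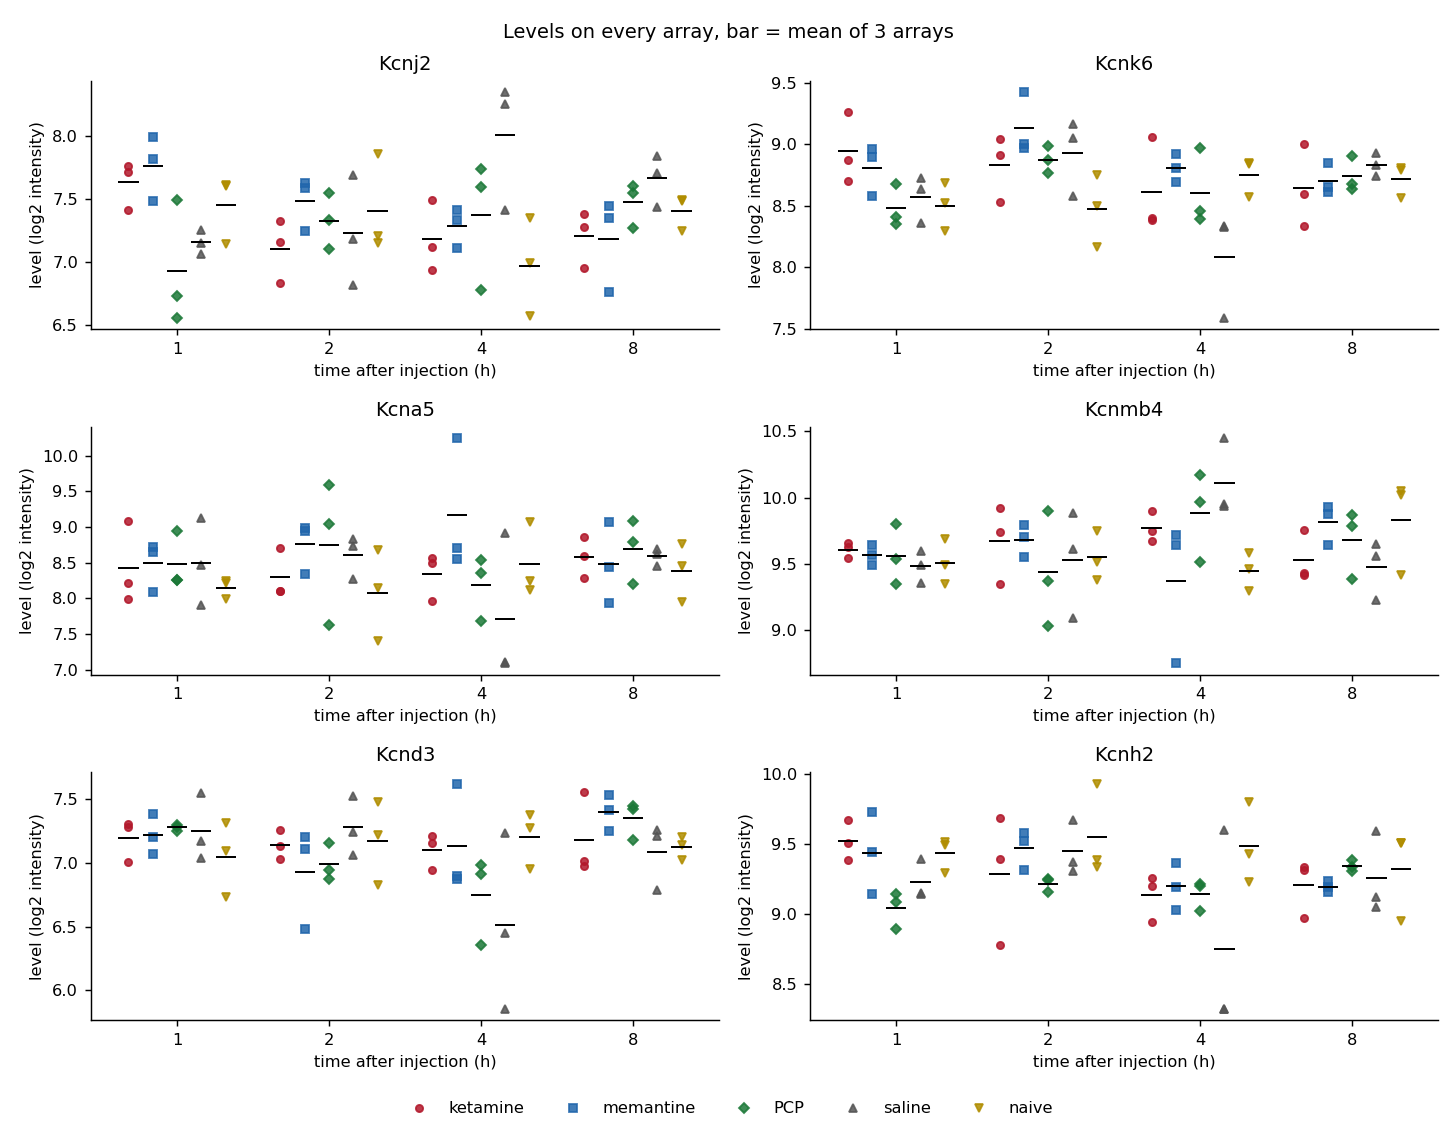
Array levels (y axis, log2 signal; points are arrays of 2 pooled mice, bars the mean of 3) by time after injection and treatment (x axis) of 6 Kcn genes called or near the threshold at 4 h in some comparison or alternative. At 4 h, for Kcnj2 2 of 3 saline arrays lie above 8.2 while every drug and naive array lies below 7.8, and for Kcnk6 the saline arrays lie at or below 8.34.

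With memantine at 4 h the nearest were Kcnk6, Kcna5, Kcnmb4 and Kcnh3. Kcnk6 encodes TWIK-2, a two-pore channel of endolysosomes and vascular cells, and read 8.69, 8.81 and 8.92 with memantine, against 8.32, 8.34 and 7.59 with saline, with no overlap (0.72, SE 0.205, adjusted p = 0.0696). Its naive arrays read 8.57, 8.84 and 8.85, so that memantine minus naive was 0.06 and saline minus naive -0.67. A dimmer probe of Kcnk6 had the opposite sign for memantine against saline. Kcna5 (Kv1.5), known from vascular muscle and microglia, read 8.55, 8.70 and 10.25 with memantine, against 8.92, 7.11 and 7.09 with saline and 9.07, 8.25 and 8.12 in naive mice (1.46, SE 0.427, adjusted p = 0.077). The memantine and saline arrays of Kcna5 overlapped. Kcnmb4, the β4 subunit that slows neuronal BK channels, read 9.72, 9.64 and 8.75 with memantine, against 9.95, 9.94 and 10.45 with saline and 9.58, 9.46 and 9.29 in naive mice (-0.74, SE 0.219, adjusted p = 0.0813). Kcnh3 changed by -0.96 there (adjusted p = 0.0864). Without the 3 saline arrays of lowest correlation the changes were 0.47 for Kcnk6, 2.06 for Kcna5, -0.57 for Kcnmb4 and -1.53 for Kcnh3. Each of these rests on a single saline array of 4 h. For Kcnk6 and Kcnmb4 all saline arrays lay outside the range of the naive ones, on the side away from memantine.

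The counts changed when single arrays were left out. The shares of all probes called in the same fits are not set beside them, so they are not read as a result about Kcn genes. Without saline 4 h replicate 1 the memantine count at 4 h was 5 (Kcnd3, Kcnk6, Kcna5, Kcnh3 and Kcnj2) and that of saline against naive 2 (Kcnd3 and Kcnj2). Without saline 4 h replicate 2, saline against naive gave 4 (Kcnh2, Kcnk6, Kcna6 and Kcns1), memantine 2 (Kcnh2 and Kcnk6), and ketamine and PCP 2 each (Kcnh2 and Kcns1). Without memantine 4 h replicate 1 the memantine count was 2 (Kcna5 and Kcnmb4). Without the 3 saline arrays of lowest correlation only 1 saline array of 4 h, replicate 2, was left, so calls of that fit are not given. Kcnd3 (Kv4.3) read 7.23, 5.85 and 6.45 with saline at 4 h, against 7.27, 6.96 and 7.37 in naive mice, so that the array left was its lowest. Kcnh2 (ERG1) read 8.32, 9.60 and 8.32 with saline at 4 h, against 9.23, 9.42 and 9.79 in naive mice. For Kcnh2 the low arrays were replicates 1 and 3, and saline minus naive over the 4 times was -0.28 (adjusted p = 0.453), the smallest p of any Kcn gene there, and -0.05 without the 3 saline arrays of lowest correlation. The dimmer probes of Kcnh2 all had the opposite sign for saline against naive over the 4 times. In that comparison over the 4 times 4 Kcn genes had an unadjusted p under 0.05 (4.55%, all genes 8.73%).

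At the other times 0 of 88 Kcn genes were called, where 0.00452% of all probes were called with ketamine at 2 h, 0.00226% each with memantine at 2 h and PCP at 1 h, and 0% in the other 6 drug comparisons. At an unadjusted p they were 4 (4.55%, all genes 5.23%), 7 (7.95%, all genes 4.66%) and 4 (4.55%, all genes 4.7%) with ketamine at 1, 2 and 8 h. With memantine they were 6 (6.82%, all genes 4.94%), 3 (3.41%, all genes 3.67%) and 5 (5.68%, all genes 5.04%), and with PCP 4 (4.55%, all genes 4.24%), 5 (5.68%, all genes 4.14%) and 3 (3.41%, all genes 4.55%). Drug arrays did not overlap saline arrays for between 3 Kcn genes (memantine at 2 h, 3.41%, all genes 8.14%) and 10 (memantine at 1 h and at 8 h, 11.4%, all genes 8.91% and 11.4%). The gene with the smallest p was Kcnc2 with memantine at 1 h (0.52, adjusted p = 0.881), Kcnmb2 with memantine at 2 h (-0.77, adjusted p = 1) and Kcna7 with memantine at 8 h (0.75, adjusted p = 0.99). With PCP at 2 h it was Kcnj9 (0.57, adjusted p = 0.857). Dimmer probes of Kcnc2 had the opposite sign with memantine at 1 h.

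Saline against naive also gave 0 called Kcn genes at 1, 2 and 8 h by limma, where 0% of all probes were called at each time. At an unadjusted p under 0.05 there were 3 (3.41%, all genes 3.72%), 4 (4.55%, all genes 3.72%) and 4 (4.55%, all genes 4.08%). The smallest p at 1 h was that of Kcnk4 (TRAAK, a mechanosensitive two-pore channel), which read 6.63, 6.73 and 7.01 with saline, against 7.35, 7.44 and 7.68 in naive mice, with no overlap (-0.70, adjusted p = 1). At 2 h it was Kcnk15 (TASK-5), at 7.14, 7.26 and 7.06 with saline, against 6.26, 6.59 and 6.64 in naive mice, again with no overlap (0.65). At 8 h it was Kcne1l (Kcne5), an inhibitory subunit of KCNQ1 channels, at 9.82, 9.75 and 10.19 with saline, against 8.93, 9.75 and 9.35 in naive mice (0.58). The nearest saline and naive arrays of Kcne1l both read 9.75. A second probe of Kcnk4 and of Kcnk15 had the opposite sign.

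Two-pore channels pass the leak current of neurons and glia. Kcnk1 (TWIK-1) was the steadiest gene of the set and changed by -0.02, 0.00 and 0.02 with ketamine, memantine and PCP (SE 0.07). Kcnk2 (TREK-1), opened by stretch and by volatile anaesthetics, changed by 0.01, 0.08 and 0.00 (SE 0.12). The acid-sensitive TASK channels Kcnk3 and Kcnk9 changed by -0.06, -0.18 and 0.04 (SE 0.15) and by 0.10, 0.04 and -0.17 (SE 0.14). Kcnk13 (THIK-1), the leak channel of microglia, changed by -0.03, -0.05 and -0.10 (SE 0.08). Kcnk6 had a memantine drug factor of 0.26 (adjusted p = 0.427, 10 of 12 arrays above saline), or 0.17 without the 3 saline arrays of lowest correlation. A dimmer probe of Kcnk6 had the opposite sign. Kcnk18 (TRESK), known from sensory neurons, was above the array median on only 2 arrays, and its memantine value of -0.29 (adjusted p = 0.481) lies among dim signals. Kcnk7, a subunit with no known current alone, had an SD of 0.58 over the arrays and ranges over 12 arrays that overlapped between all treatments. Over the 14 two-pore genes 7 were higher and 7 lower with ketamine and with memantine, and 6 and 8 with PCP.

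No gene of the group of channels opened by calcium or sodium, which by symbol also holds Kcnu1, was called. Of 8 genes 6 were lower than saline with ketamine (median -0.061), 7 with memantine (median -0.082) and 6 with PCP (median -0.050), against the same saline arrays, which had a median of 0.079 over naive arrays. Relative to naive arrays 4 were higher and 4 lower with ketamine, and 5 higher and 3 lower with memantine and with PCP. Kcnma1, the pore of the BK channel, was lower than saline on 10 of 12 PCP arrays (-0.17, SE 0.078, adjusted p = 0.693), with 0.05 for ketamine and -0.06 for memantine. A dimmer probe of Kcnma1 had the opposite sign with PCP. At 4 h Kcnma1 read 10.14, 10.36 and 10.10 with PCP, against 10.89, 10.41 and 10.44 with saline and 10.31, 10.17 and 10.14 in naive mice. The SK genes Kcnn1, Kcnn2 and Kcnn3 changed by -0.04, 0.04 and -0.08 with ketamine (SE 0.11, 0.16 and 0.17). Kcnn4 (the intermediate-conductance channel of blood cells and microglia) had -0.39 with PCP (adjusted p = 0.693). Kcnt1 (Slack), opened by sodium, changed by -0.08, 0.02 and 0.01 with the 3 drugs (SE 0.08). The long noncoding RNA Kcnq1ot1, which silences its imprinted neighbours on the paternal chromosome, changed by 0.10, 0.11 and 0.09 (SE 0.11).

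Differences between times were read in the control mice without a drug. In naive arrays 0 of 88 Kcn genes and 0% of all probes passed the moderated F-test over the 4 times in limma. At an unadjusted p under 0.05 there were 0 of 88 Kcn genes, beside 2.05% of all tested genes. In saline arrays 0 of 88 passed, 0.197% of all probes did, and 10 Kcn genes (11.4%, all genes 12.1%) had an unadjusted p under 0.05, led by Kcnk6 (adjusted p = 0.117), Kcnma1, Kcnj2 and Kcnd3. All 4 had their highest or lowest saline mean at 4 h. Drug by time interactions gave 0 called Kcn genes, where 0%, 0.00226% and 0% of all probes were called with ketamine, memantine and PCP. At an unadjusted p under 0.05 there were 4 Kcn genes with ketamine (4.55%, all genes 5.73%), 11 with memantine (12.5%, all genes 9.17%) and 5 with PCP (5.68%, all genes 5.98%).

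Ketamine and PCP are arylcyclohexylamines and memantine is an aminoadamantane, and they were given at different doses, so their values are set side by side. Each drug was read against the same saline arrays. For Kcnj9 the drug factors were 0.41, 0.17 and 0.13 with ketamine, memantine and PCP, for Kcnab1 -0.30, -0.02 and -0.23, and for Kcne2 0.67, -0.04 and 0.55. In direct contrasts at these doses 0 of 88 Kcn genes and 0% of all probes were called. This held for ketamine against memantine, PCP against memantine and ketamine against PCP. At an unadjusted p under 0.05 there were 5 Kcn genes in each (5.68%, all genes 3.82%, 2.72% and 2.79%). The smallest p were those of Kcnab1 (ketamine minus memantine -0.28, 95% interval -0.48 to -0.07), Kcnj6 (PCP minus memantine -0.35, -0.62 to -0.07) and Kcnj9 (ketamine minus PCP 0.28, 0.09 to 0.47), each with an adjusted p of 1.

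Genes that work with potassium channels but carry other names were read from 2 lists. The 32 listed partners included the Kv4 subunits Dpp6 and Dpp10 and the sulfonylurea receptors Abcc8 and Abcc9. Of the 32, 30 were measured and 0 were called by limma (all probes 0.0181%, 0.0543% and 0% in the ketamine, memantine and PCP drug factors). With ketamine 15 were higher and 15 lower (median -0.001, 16.7% at an unadjusted p under 0.05, all genes 9.2%), with memantine 16 and 14 (median 0.010, 3.33%, all genes 8.88%) and with PCP 14 and 16 (median -0.013, 10%, all genes 7.08%). Dlg2 (PSD-93), a scaffold of Kv1 and NMDA channels, had the lowest values of the list, at -0.40 with ketamine, -0.31 with memantine and -0.43 with PCP. Dlg2 was picked as the lowest of 30 genes and was not called. Its values share the same saline arrays and are given without a comparison with naive arrays, so they are not separate results for each drug. Of 19 pumps and cotransporters that move potassium, 14 were measured and 0 called, with 11 higher and 3 lower for ketamine (median 0.116), 7 and 7 for memantine (median 0.017) and 9 and 5 for PCP (median 0.049). At an unadjusted p under 0.05 there were 1, 0 and 0 of the 14 pumps and cotransporters with the 3 drugs, beside 9.2%, 8.88% and 7.08% of all genes.

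For 50 of the Kcn genes more than 1 probe was tested. All probes of a gene had 1 sign in 29 of the 50 with ketamine, 22 with memantine and 22 with PCP. Probes of a gene can lie on different transcripts or differ in how brightly they bind, and no probe positions were used here, so a value holds for the probe it was read on.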

How the data were processed

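Striatal RNA of 2 pooled mice per array was hybridized to Illumina MouseWG-6 v2 BeadChips, and the methods describe the 3 arrays of a group as biological replicates. The deposited intensity values are linear signals that the authors exported without normalization, with no detection p or control probes. The authors also deposited log2 values, background-subtracted and quantile-normalized, which served as an alternative. Signals were corrected by normexp (offset 50), quantile-normalized and log2-transformed in limma 3.58.1 (R 4.3.3). Probes above the 25th percentile of their array on at least 3 arrays were tested (44236 of 45281). A linear model over all 60 arrays gave 20 group means and their contrasts (lmFit, eBayes, 40 residual and 7.12 prior degrees of freedom), with Benjamini-Hochberg adjustment over the tested probes and a threshold of 0.05. On simulated data the fit recovered 7, 26, 48 and 50 of 50 probes changed by 0.3, 0.5, 1 and 1.5 log2 units in the ketamine drug factor over 44236 probes. Quantile normalization sets the arrays to 1 distribution and so removes a shift of all genes. The number of arrays limits the precision. The Kcn genes, the gene lists and the rules for naming genes were chosen with earlier results of these data known. Named genes were those of smallest p in each comparison, of largest SD, and a list of 45 known from striatal neurons, glia and vessels, of which 5 had no named probe and were not analysed here. Figures were drawn with matplotlib 3.10.9.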

Additional observations from a re-analysis of the deposited data

How the results depend on the processing

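The counts of Kcn genes past the threshold were 0 in every comparison and moved in some alternatives. On the authors' values and with no background correction 1 Kcn gene (Kcnj2) passed for saline against naive at 4 h, where 223 and 166 probes of any gene passed. For memantine at 4 h the count was 18 with median scaling, where 8968 probes of any gene were called. It was 4 with a filter on all 60 arrays, where 868 probes were called. These Kcn counts rose with the calls of all probes. Leaving out 1 array at a time gave counts of 0 to 5 for memantine at 4 h, 0 to 4 for saline against naive at 4 h, 0 to 2 each for ketamine at 4 h, PCP at 4 h and time in saline arrays, and 0 to 1 for PCP at 1 h. The shares of all probes are not given for these fits. Median scaling moved the median of all tested genes to 0.088 with ketamine, 0.154 with memantine and 0.076 with PCP, and that of the Kcn genes to 0.056, 0.129 and 0.040, so directions of small changes depend on the scaling.

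Single genes changed sign mainly on their dimmer probes, and the cause was not tested. Kcnj2 with ketamine at 4 h was 0.2127 against naive arrays. On other probes Kcnab1 was 0.1974, 0.3016 and 0.7542 with ketamine at 8 h, 0.223 in the ketamine drug factor, 0.115 and 0.2131 for ketamine against memantine, 0.1953, 0.2615 and 0.6522 with PCP at 8 h and 0.1269 and 0.201 in the PCP drug factor. Kcnc2 with memantine at 1 h was -0.5461, -0.3031 and -0.09011, and Kcnd1 was -0.02667 in the memantine drug factor and 0.01386 for saline against naive. Kcnh2 for saline against naive was 0.06203, 0.2274 and 0.1716. Kcnj6 was 0.08997 with PCP at 1 h and 0.006452, 0.02311 and 0.04265 for PCP against memantine, and Kcnj9 was -0.04321 for ketamine against PCP. Kcnk15 for saline against naive at 2 h was -0.1549 and Kcnk4 at 1 h 0.09491. Kcnk6 was -0.1769 with memantine at 4 h and -0.149 in the memantine drug factor, and Kcnma1 was 0.02058 in the PCP drug factor.

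The replicate numbers did not pair the arrays, since the mean correlation of deviations was -0.0069 for the same number and 0.00346 for different numbers, and 7 of 60 arrays correlated best with their own number. With the replicate block the ketamine drug factor of Kcnj9 was 0.4095 (adjusted p = 0.142), and the block moved no Kcn count.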
